A study of Mus musculus with 2 samples.

Results

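Immunoglobulin-type neural adhesion molecules are cell-surface proteins through which neurons and glia recognise and hold each other. The 10 genes described here were chosen by symbol: Ncam1, Ncam2, L1cam, Chl1, Nrcam, Nfasc, Cntn1, Cntn2, Cadm1 and Thy1. All 10 had a row among the 43346 mouse genes of each gene table, and every annotated transcript of Ncam1, L1cam and Nfasc was read as well. RNA was measured in the midbrain of B6NCrl mice on the day of birth (age 0 day), in a library from pup 1 (replicate 1) and a library from pup 3 (replicate 2). No allele, agent or treatment is named for either pup, both name the same donor record, and sex was not collected. Each library was made from 13 pg of total tissue RNA, labelled as 1 cell-equivalent, with a SMART-type amplification. The assay is labelled as single-cell RNA-seq, but the input was extracted RNA and no cell was isolated. The 2 libraries form 1 group, so levels are described and no condition is compared. A difference between the pups is a difference between 2 libraries, with no replicate check.

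These proteins share extracellular immunoglobulin domains, usually followed by fibronectin type III domains, and bind the same molecule or a relative on the next cell. The Ncam1 protein carries polysialic acid in the developing brain, which loosens adhesion, while the L1 family (L1cam, Chl1, Nrcam, Nfasc) links the membrane to the spectrin skeleton through ankyrins. The contactins Cntn1 and Cntn2 and the small protein Thy1 have no cytoplasmic part and sit on a glycosylphosphatidylinositol (GPI) anchor.

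The gene rows held 26037002 expected counts in pup 1 and 32408655 in pup 3, and a count of 0 still allows up to 3 counts, or 0.115 and 0.0926 CPM (counts scaled to a common library total). This allowance covers the counting of reads and not the amplification. A count of 0 therefore does not show that a message was absent from the tissue. Levels are given as TPM, counts per transcript length on a common total. At 1 TPM or more, taken as detected, there were 10166 genes in pup 1 and 9367 in pup 3. Of 5 neuron markers 5 were detected in both libraries, with a summed TPM of 8447 and 4996, of which Tubb3 made up 5927 and 1794. Of 5 radial glia and astrocyte markers 4 were detected in both (2081 and 2470), and Gfap, an intermediate filament of mature astrocytes, was at 0. Myelin markers were sparse, with 2 of 5 in both libraries (59.0 and 64.3) and Mag and Mobp at 0. Microglia (31.7 and 68.4), oligodendrocyte precursor (60.7 and 49.96), endothelial (150.2 and 125) and meningeal fibroblast markers (148 and 209) were also low beside the neuron sum. Cldn5 made up 147 and 115 of the endothelial sum, while Tek was at 0 in both and Pecam1 at 0 and 0.02 TPM. In tissue RNA such as this, fewer cells of a type and less RNA per cell cannot be told apart.

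The highest of the 10 genes was Ncam1, the founding neural cell adhesion molecule, which is made by most neurons and by glia. Ncam1 stood at 1003 TPM in pup 1 and 315 TPM in pup 3, from 98432 and 42109 counts (659 ± 486, SD, n = 2). It ranked 110 among the detected genes of pup 1 and 543 among those of pup 3, so it was among the abundant messages of both libraries while its level differed about as much as the mean itself. Cadm1 came next by the mean. This synaptic adhesion molecule, known for starting synapses on contact, stood at 302 TPM in pup 1 and 498 TPM in pup 3 (400.4 ± 139, SD, n = 2). The order of the 2 leading genes turned between the libraries: Ncam1 was above Cadm1 in pup 1 and below it in pup 3.

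L1cam, Cntn1 and Chl1 formed a middle tier between 108 and 136 TPM in both pups. L1cam, which guides growing axons and bundles them, stood at 136 TPM in pup 1 and 118 TPM in pup 3 (127 ± 13.3, SD, n = 2). Cntn1, a contactin that partners L1-family proteins in the same membrane, stood at 133 TPM and 114 TPM (124 ± 13.6). Chl1, the close homologue of L1, stood at 110.8 TPM and 108 TPM (109 ± 1.99), the smallest spread of the 10 genes. By TPM over all models, the 3 genes kept this order in both libraries. Over protein-coding transcript models of 1000 bases or more, L1cam stood at 83.0 TPM in pup 3, below Cntn1 and Chl1. The deposited 95% intervals of the TPM overlapped for L1cam and Cntn1 in pup 3, while Cntn1 and Chl1 were apart in both libraries. These intervals cover the assignment and counting of reads, not the amplification.

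Nfasc and Nrcam, the L1-family proteins known from axon initial segments and nodes of Ranvier, lay lower. By TPM over all models they could not be put in order. Nfasc stood at 41.7 TPM in pup 1 and 53.8 TPM in pup 3 (47.7 ± 8.54, SD, n = 2). Nrcam stood at 46.3 TPM and 43.3 TPM (44.8 ± 2.16), so that it was above Nfasc in pup 1 and below it in pup 3. Over protein-coding transcript models of 1000 bases or more, Nrcam was above Nfasc in both pups, at 46.3 and 43.3 TPM against 40.4 and 23.3. Deposited intervals were not compared for these sums. Cntn2, a contactin of early axons also called TAG-1, stood at 23.5 TPM in pup 1 and 42.9 TPM in pup 3 (33.2 ± 13.7). The higher TPM of Cntn2 in pup 3 went against its counts, which are described with its transcripts.

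The lowest genes were Ncam2 and Thy1. Ncam2, a relative of Ncam1 best known from olfactory axons, stood at 0.43 TPM in pup 1, from 24 counts, and at 20.8 TPM in pup 3, from 1637 counts (10.6 ± 14.4, SD, n = 2). Thy1, a GPI-anchored protein that marks mature projection neurons and, in mice, T cells, stood at 4.76 TPM in pup 1 and 10.3 TPM in pup 3 (7.53 ± 3.92), from 127 and 384 counts. Of 5 T cell markers, Cd3e, Cd3d and Cd2 were at 0 in both libraries, Lck was at 37.5 TPM and Cd3g at 0.31 TPM in pup 1, and all 5 were at 0 in pup 3. Which cells gave the Thy1 message was not tested. Ncam2 lay below Thy1 in pup 1 and above it in pup 3.

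**Figure D1:**
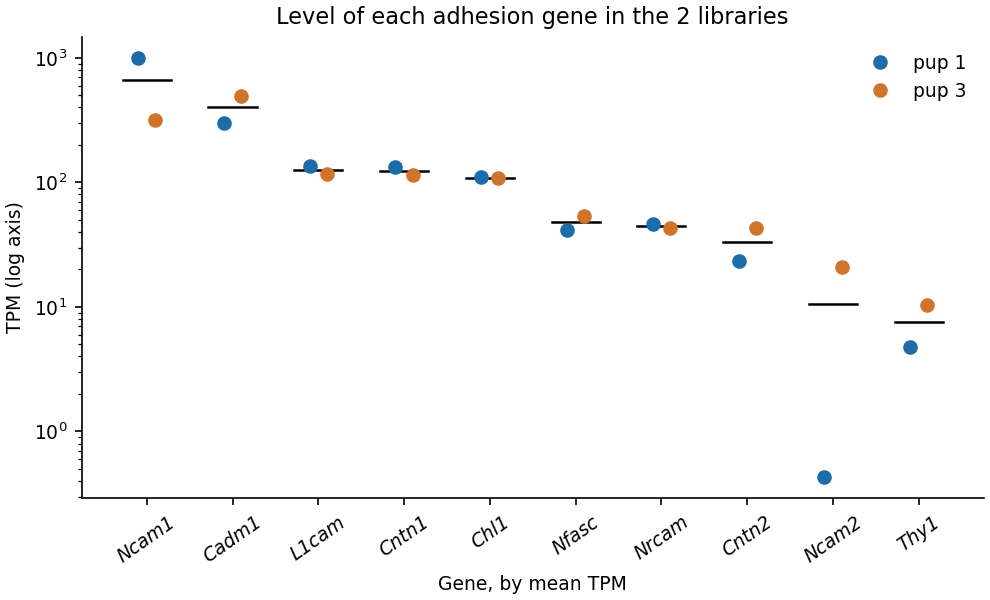
TPM of each of the 10 genes (log axis) in pup 1 and pup 3, with a line at the mean, genes ordered by mean TPM. Ncam1 runs from 1003 to 315, L1cam, Cntn1 and Chl1 stay between 108 and 136, and Ncam2 spans the widest range, from 0.43 to 20.8.

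Across the order by mean TPM, 4 of the 9 neighbouring pairs kept their order in both pups with deposited intervals apart. These were Cadm1 over L1cam, Cntn1 over Chl1, Chl1 over Nfasc and Cntn2 over Ncam2. The last of these depends on the measure. Over protein-coding transcript models of 1000 bases or more, Cntn2 stood at 4.29 TPM in pup 3, below Ncam2 at 20.8 TPM. The 10 genes had a median mean TPM of 78.6, beside 13.9 over the 14605 genes with a count in either library. At 1 TPM or more in both libraries were 9 of the 10, Ncam2 in pup 1 being the exception, beside 60.8% of the 12144 genes detected in either library. Ncam1 alone made up 55.6% of the summed TPM of the 10 genes in pup 1 (1803) and 23.8% in pup 3 (1324).

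Within each library, ratios between related genes need no scaling between libraries, and a direction was named where both pups had it with deposited intervals apart. On the scale of log2(TPM + 1), the difference Ncam1 minus Ncam2 was 9.46 in pup 1 and 3.86 in pup 3 (mean 6.66 ± 3.96, SD, n = 2). Cntn1 exceeded Cntn2 by 2.46 and 1.39, and L1cam exceeded Nfasc by 1.69 and 1.11. So by TPM over all models, the more abundant gene of each of these pairs was the same in both pups, while the size of the gap varied. Over protein-coding transcript models of 1000 bases or more, the mean for Cntn1 over Cntn2 moved from 1.93 to 3.45. Cntn1 stood at 133 and 114 TPM there and Cntn2 at 23.5 and 4.29 TPM, so this gap was wider in pup 3. The mean for L1cam over Nfasc moved from 1.40 to 1.76. Cadm1 over Thy1 was the steadiest wide ratio of these genes, at 5.72 and 5.47 (5.59 ± 0.18). L1cam exceeded Chl1 by 0.30 and 0.12, and this small difference turned to -0.04 on average when only protein-coding transcript models of 1000 bases or more were summed. On that measure L1cam stood at 136 and 83.0 TPM and Chl1 at 110.8 and 108 TPM, so the order turned in pup 3 alone. For Nrcam over Nfasc the log2 ratio was 0.15 in pup 1 and -0.31 in pup 3, so no direction was named. Over the same protein-coding models its mean moved from -0.08 to 0.53, with Nrcam above Nfasc in both pups.

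The pups were compared by the ratio of counts scaled to each library's gene total. A gene was called over 4-fold apart where the whole exact (Clopper-Pearson) 95% interval of that ratio lay beyond 4-fold. This interval covers the error of counting and not that of amplification, in which 1 molecule can give many reads. Of the 10 genes 1 was called, Ncam2, beside 41% of the 14605 genes with a count in either library, 22.3% of the 6031 genes with a mean TPM from 20 upward and 4.02% of the 1667 from 100 upward. Ncam2 was 54.8-fold higher in pup 3 (interval 36.7 to 85.8), a direction called for 17.9% of the 14605 genes.

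Ncam1 and Cntn2 differed most among the other 9 genes. Ncam1 was 2.91-fold higher in pup 1 by scaled counts (interval 2.88 to 2.94). Cntn2 was 3.31-fold higher in pup 1 (interval 3.08 to 3.57). For both, as for Ncam2, the whole interval lay past 2-fold, which held for no other of the 10 genes. The neuron marker Tubb3, a neuronal tubulin, was also higher in pup 1, by 2.94-fold, while Stmn2 was 1.39-fold and Snap25 1.72-fold higher in pup 3. Their part in the Ncam1 difference was not tested.

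The remaining genes lay nearer to equality. Thy1 was 2.43-fold higher in pup 3 (interval 1.98 to 2.99), and Cadm1 was 1.65-fold higher there (1.62 to 1.69). L1cam was 1.40-fold higher in pup 1 (1.36 to 1.44). The log2 ratio of pup 3 over pup 1 was 0.27 for Nfasc, 0.13 for Chl1, 0.07 for Nrcam and -0.07 for Cntn1. Scaling by edgeR's TMM or DESeq2's size factors moved the median log2 ratio of all genes from 0.20 to 0.01 or 0.00, and turned Chl1 to -0.06 or -0.07 and Nrcam to -0.12 or -0.13, so neither gene has a stable direction. The other 8 genes kept theirs under these scalings and under scaling by spike-in counts. The median size of the log2 ratio, without sign, was 0.61 over the 10 genes, beside 1.08 over the 9288 genes with counts in both libraries and 0.84 over the 5575 of them with a mean TPM from 20 upward.

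**Figure D2:**
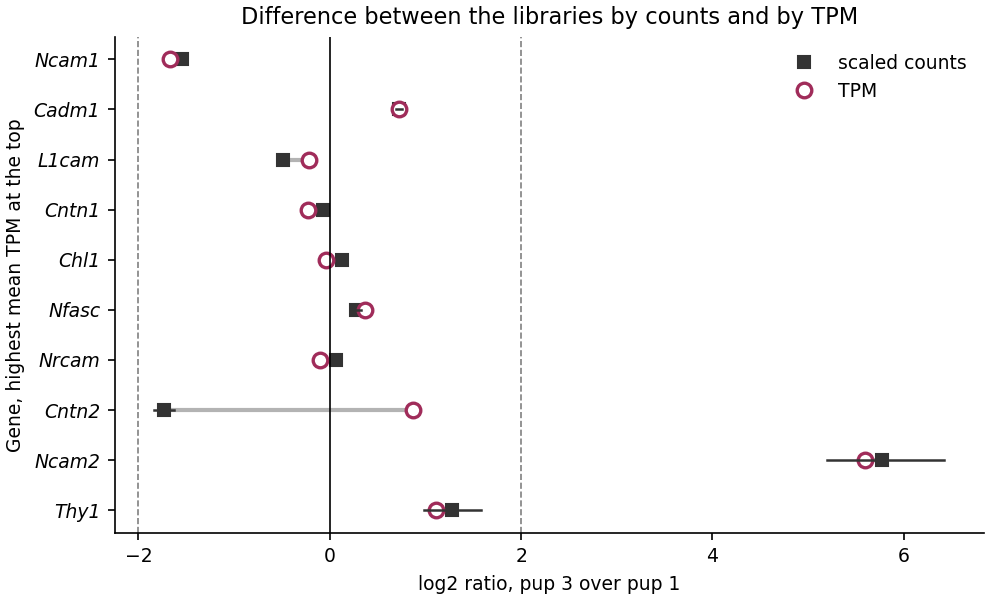
Log2 ratio of pup 3 over pup 1 for each gene, by scaled counts (squares, with the exact 95% interval) and by TPM (circles), joined by a grey line; dashed lines mark 4-fold. Ncam2 is the gene beyond 4-fold, and Cntn2 is the gene whose 2 measures lie far apart, at -1.73 by counts and 0.87 by TPM.

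For 3 of the 10 genes, Chl1, Nrcam and Cntn2, TPM and scaled counts pointed to different pups, beside 9.49% of the 7387 genes detected and counted in both. For Chl1 and Nrcam both ratios were close to 0. For Cntn2 the gap was wide, and its transcripts show where the measures part. The full-length model Cntn2-201 held all 2705 counts in pup 1 and 692 in pup 3. A further 311 counts in pup 3, 30.7% of the gene's counts there, were assigned to Cntn2-206, a model of 460 bases with 3 exons at chr1:132528999-132533884 (GRCm38). Divided by so short a length, these counts made up 88.3% of the TPM of Cntn2 in pup 3, and the deposited mean length of the gene was 7177 bases in pup 1 and 1139 in pup 3. Over the full-length model alone, the TPM of Cntn2 was 23.5 in pup 1 and 4.29 in pup 3, the same direction as the counts.

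Short models weighed on 2 other genes of the set in the same library. L1cam-208, a processed transcript of 598 bases, held 0 counts in pup 1 and 392 in pup 3, which was 3.96% of L1cam counts but 29.3% of its TPM. Nfasc-206, a retained-intron model of 750 bases, held 0 and 435 counts, which was 7.87% of Nfasc counts but 54.5% of its TPM in pup 3. Among genes with at least 50 counts in each pup, a model of 3000 bases or more and a model under 1000, 4 of the 10 qualified (Ncam1, L1cam, Nfasc, Cntn2). Of these 3 had at least 25% of their TPM on models under 1000 bases in pup 3, beside 32.6% of 2586 genes, and 0 had so in pup 1, beside 26.2%. Over protein-coding models of at least 1000 bases, L1cam stood at 136 TPM in pup 1 and 83.0 TPM in pup 3. Nfasc stood at 40.4 and 23.3 TPM there, higher in pup 1, from 3672 and 5079 counts. This direction of Nfasc rested on Nfasc-208, a model of 3049 bases, with 22.0 TPM in pup 1 and 0.15 in pup 3. The 9739-base Nfasc-202 stood at 14.9 and 23.0 TPM, and the scaled counts of the gene were 1.21-fold higher in pup 3. So the direction of Nfasc depends on the measure. Over the same protein-coding models Cadm1 stood at 298 and 429 TPM, and the other 6 genes kept their values.

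Ncam1 lies on chromosome 9, chr9:49502136-49798925 on the minus strand (GRCm38, ENSMUSG00000039542.11). The gene is known for 3 main proteins: NCAM-140 and NCAM-180 cross the membrane and share a stop codon, with a long extra exon in the cytoplasmic part of NCAM-180, and NCAM-120 ends earlier on a GPI anchor. Of its 6 annotated models 4 had counts. Ncam1-204 (ENSMUST00000193547.1), which lacks the 801-base cytoplasmic exon at chr9:49506853-49507653, held 77.3% of Ncam1 TPM in pup 1 and 69.8% in pup 3. Ncam1-205 (ENSMUST00000194252.1), which has it, held 21.4% and 23.2% (22.3 ± 1.29, SD, n = 2), from 22643 and 10789 counts. Ncam1-202 (ENSMUST00000166811.4), which also lacks it, held 1.07% and 6.99%. The split between models without and with the 801-base exon was thus close in 2 libraries whose Ncam1 level differed 2.91-fold.

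The model with the early stop of the GPI-anchored form, Ncam1-201, held 105 counts in pup 1, 0.26% of Ncam1 TPM, and 0 counts in pup 3. Ncam1-205 also carries short exons that the other counted models skip: the 30-base variable exon known as VASE, in an immunoglobulin domain, and a 15-base exon followed by a 3-base exon (AAG) between the fibronectin domains. Only Ncam1-205 carries VASE and the 801-base exon in this annotation, so the reads of either exon cannot be told apart in the tables, and 22.3% is a share of that model rather than of either exon. VASE is shown with the 15-base exon because both are placed on that model alone among the counted ones. Capitals mark the exon and lower case the 15 coding bases on each side, read 5′ to 3′ from the GENCODE M21 transcript on GRCm38.
Ncam1 VASE exon, chr9:49550540-49550569, minus strand: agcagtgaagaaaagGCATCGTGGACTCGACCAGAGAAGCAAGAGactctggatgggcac
Ncam1 15-base exon, chr9:49541888-49541902, minus strand: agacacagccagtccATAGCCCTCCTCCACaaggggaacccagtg

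L1cam lies at chrX:73853778-73896105 on the minus strand (ENSMUSG00000031391.14). Its coding sequence is known for a pair of mini-exons that neurons include and many other cells skip. The first lies near the start of the protein. The other lies in the cytoplasmic part and completes a tyrosine-based signal that the clathrin adaptor AP-2 binds. Both are printed here because they separate the L1cam models, in the same style as for Ncam1.
L1cam 15-base exon, chrX:73867022-73867036, minus strand: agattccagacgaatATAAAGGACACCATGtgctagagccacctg
L1cam 12-base exon, chrX:73855652-73855663, minus strand: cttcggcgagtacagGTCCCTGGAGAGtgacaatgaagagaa

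Of the 13 annotated L1cam models 8 had 0 counts in both libraries, among them L1cam-201, the full-length model without either mini-exon. L1cam-203 (ENSMUST00000114430.3), with the 15-base exon and without the 12-base exon, held 54.9% of L1cam TPM in pup 1 and 36.9% in pup 3. L1cam-202 (ENSMUST00000102871.5), with both exons, held 44.7% and 33.8%. Of the TPM on models that either carry or skip the exon, 100% carried the 15-base exon in both pups. The 12-base exon was carried on 44.9% in pup 1 and 47.8% in pup 3 (46.3 ± 2.06, SD, n = 2), and by counts on 44.8% and 47.7%. So the 15-base exon was placed on every counted model that could show it, and the 12-base exon on somewhat under 50%, alike in both pups.

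Nfasc lies at chr1:132564690-132741797 on the minus strand (ENSMUSG00000026442.10). Neuronal neurofascin (NF186) has a mucin-like stretch that glial neurofascin (NF155) lacks, and NF155 has a fibronectin domain that NF186 lacks. The models divide at 2 blocks of exons: a pair of 116 and 205 bases at chr1:132600099-132600214 and chr1:132597765-132597969, and a trio of 237, 117 and 153 bases between chr1:132588074-132588310 and chr1:132582995-132583147. The 9739-base model Nfasc-202 (ENSMUST00000094569.6), which skips the pair and carries the trio, held 63.6% of Nfasc counts in pup 1 and 91.6% in pup 3, and 35.7% and 42.8% of its TPM. Nfasc-201, Nfasc-203 and Nfasc-205, which carry the pair and skip the trio, had 0 counts in both libraries. Nfasc-207, which carries both blocks, held 7.57% of the counts in pup 1 and 0.20% in pup 3. Nfasc-208, with 28.8% of the counts in pup 1, was taken neither as carrying nor as skipping the pair. Its coding sequence ends at chr1:132599970, past the 116-base exon on this strand. How far this model reaches into the pair was not analysed. The counted full-length models thus all carried the trio in both pups. Which of these exons encode the mucin-like stretch or the fibronectin domain was not analysed here.

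The pups parted at Nfasc-208 (ENSMUST00000188307.1), a 3049-base model that ends at an earlier stop codon. It held 1057 counts in pup 1, 28.8% of the gene's counts and 52.7% of its TPM, against 9.78 counts in pup 3, 0.18% of the counts. Nfasc-208 also skips an 18-base exon near the start of the coding sequence that Nfasc-202 and Nfasc-207 carry. The exon was therefore carried on 71.2% of counts in pup 1 and 99.8% in pup 3, and by TPM on 45.6% and 99.4%. The 45-base exon was carried on 100% in both pups and the 51-base exon on 0%. The 3 exons are shown because they are the short alternative coding exons of this gene, in the style used above.
Nfasc 18-base exon, chr1:132637864-132637881, minus strand: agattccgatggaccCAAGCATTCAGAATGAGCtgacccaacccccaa
Nfasc 51-base exon, chr1:132627872-132627922, minus strand: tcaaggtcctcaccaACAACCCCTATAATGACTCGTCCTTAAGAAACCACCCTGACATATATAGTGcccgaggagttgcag
Nfasc 45-base exon, chr1:132607003-132607047, minus strand: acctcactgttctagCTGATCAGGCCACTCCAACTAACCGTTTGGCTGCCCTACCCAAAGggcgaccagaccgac

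**Figure D3:**
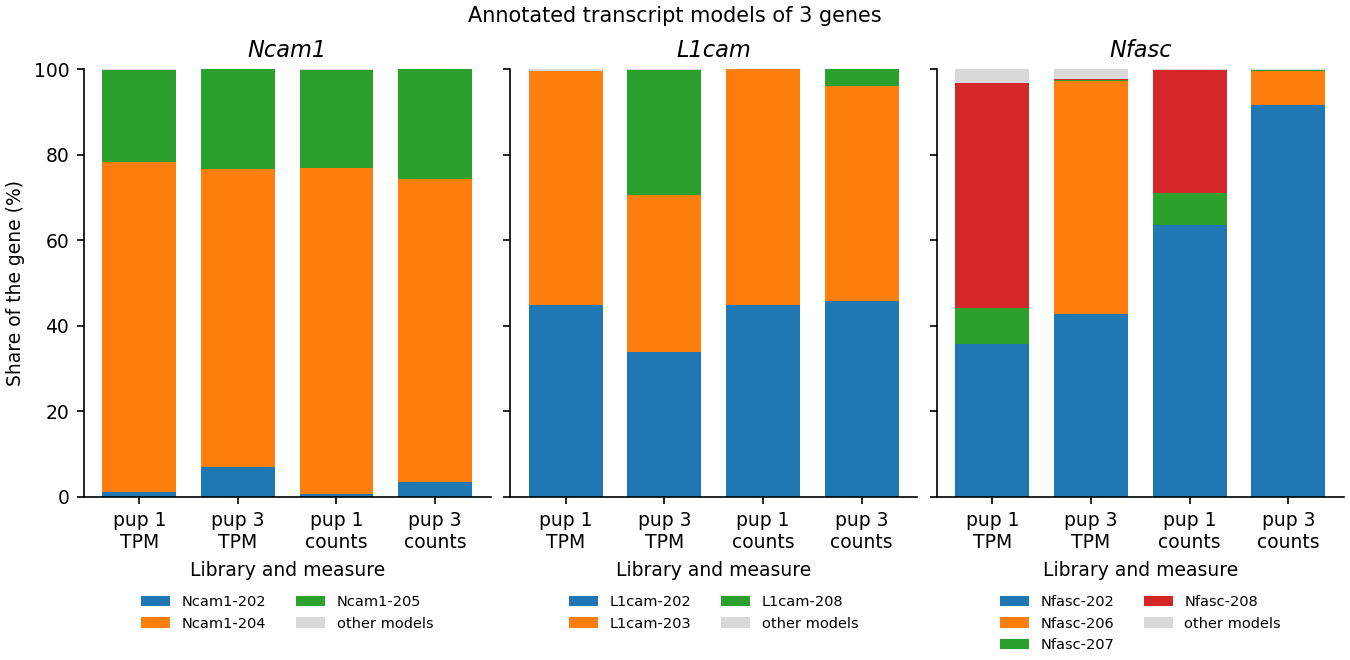
Share (%) of Ncam1, L1cam and Nfasc on each annotated transcript model in pup 1 and pup 3, by TPM and by expected counts; models under 5% in every bar are grouped as other. Ncam1-205 lies between 21.4% and 25.6% of Ncam1 in all 4 bars, while L1cam-208 takes 29.3% of L1cam TPM but 3.96% of its counts in pup 3 and Nfasc-206 takes 54.5% of Nfasc TPM but 7.87% of its counts.

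The other genes of the set, apart from Cadm1 and Cntn2, had most of their expected counts on 1 model. Chl1 (chr6:103510586-103750211) and Thy1 (chr9:44043384-44048579) have 1 model each. All Ncam2 counts in both libraries were on Ncam2-202. Nrcam-201 held 100% of Nrcam counts in pup 1 and 97.8% in pup 3, and Cntn1-204 held 97.5% and 94.99% of Cntn1 counts. The deposited posterior means put less on these models: 77.3% and 89.8% of Cntn1 TPM on Cntn1-204, with 19.2% on Cntn1-201 in pup 1, and 96.6% and 91.5% of Nrcam TPM on Nrcam-201. The share of Cntn1-204 in pup 1 is therefore not resolved by these data. Cadm1, whose alternative exons lie in the stem beside the membrane, was spread over 9 counted models, led by counts by Cadm1-204 with 48.9% and 47.7%. Cadm1-208, a processed transcript of 1112 bases, held 0.72% of Cadm1 counts in pup 1 and 7.07% in pup 3, or 1.59% and 13.9% of its TPM.

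Some of these genes are neighbours. Cntn2 (chr1:132509427-132543256) and Nfasc lie 21.4 kb apart on the same strand of chromosome 1, and by scaled counts Cntn2 was 3.31-fold higher in pup 1 while Nfasc was 1.21-fold higher in pup 3. Cadm1 (chr9:47530173-47857637) lies 1645 kb from Ncam1, and these genes also leaned to different pups. Ncam2 (chr16:81200697-81626828), Nrcam (chr12:44328885-44601964) and Cntn1 (chr15:92051165-92341967) have no other gene of the set on their chromosomes.

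The partners and enzymes of these proteins were read from 6 lists with 85 genes in all. At 1 TPM or more in both libraries were 60 of the 85, and 31 were over 4-fold apart, 17 higher in pup 1 and 14 in pup 3, beside 41% of all genes with a count, 23.1% higher in pup 1 and 17.9% in pup 3. These shares of all genes are also the background for each list, and with 6 to 28 genes a list nothing particular is read from its count. Of the 28 other immunoglobulin-type adhesion molecules, 15 were detected in both libraries, 7 in pup 1 alone, 5 in pup 3 alone and 1 in neither, beside 7389, 2777 and 1978 of the 12144 genes detected in either library. Their median mean TPM was 14.6. The highest were Bsg, a chaperone of lactate transporters, at 554 and 782 TPM, and the GPI-anchored proteins Ntm (284 and 314 TPM) and Opcml (79.7 and 66.8 TPM), with Nptn, a synaptic glycoprotein, at 153 and 222 TPM.

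Of those 28 genes 14 were over 4-fold apart, 9 higher in pup 1 and 5 in pup 3. Of the 4 other contactins, Cntn4 was read in both pups, at 51.4 and 84.1 TPM (1.42-fold higher in pup 3), and the remaining 3 were over 4-fold apart. Cntn5 stood at 30.4 TPM in pup 1 and 0 in pup 3, at least 674-fold higher in pup 1, and Cntn6 at 23.1 and 0.03 TPM, from 1249 and 2 counts, a ratio of 777 with an interval from 215 to 6426. Dscaml1, a homologue of the Down syndrome cell adhesion molecule, stood at 23.7 and 0 TPM, at least 812-fold higher in pup 1. Cntn3 ran the other way, with 0 and 10.2 TPM, at least 257-fold higher in pup 3, so the contactins had no common direction. Cntn3 and Cntn4 were picked out after their values were seen. Mdga1 (24.6 and 0.84 TPM), Nectin1 (50.5 and 4.58 TPM, 9.82-fold) and Nectin3 (20.2 and 1.70 TPM) were also higher in pup 1. Igsf8 ran the other way, at 0.78 and 50.3 TPM, 58.6-fold higher in pup 3, and Icam5, an adhesion molecule of mature forebrain dendrites, was at 0 in both.

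Among 16 ligands and co-receptors 12 were detected in both libraries, and 3 were over 4-fold apart, all higher in pup 1. The leading genes were present in both: Ptn, a secreted growth factor that binds Ptprz1, at 389 and 470 TPM, and the matrix proteoglycan Ncan, a ligand of Ncam1 and L1cam, at 344 and 131 TPM. Prnp, the prion protein, stood at 159 and 264 TPM, and Ptprz1, a receptor phosphatase that binds Cntn1, at 77.3 and 122 TPM. Cntnap2, the partner of Cntn2 on myelinated axons, stood at 33.3 and 29.4 TPM, while Cntnap1, the partner of Cntn1 at paranodes, stood at 0.01 TPM from 1 count and at 0. The 3 genes over 4-fold apart were Cntnap4 (34.99 and 1.78 TPM), the integrin Itgav (26.1 and 9.08 TPM) and, below the level at which genes were named by rule, the proteoglycan Vcan (8.97 and 0.42 TPM). The receptor Fgfr2 had 0 counts in both libraries.

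Among 20 cytoplasmic adaptors and kinases 17 were detected in both libraries, and 5 were over 4-fold apart, 2 higher in pup 1 and 3 in pup 3. Ap2m1, the AP-2 subunit that reads tyrosine-based signals such as that of L1cam, stood at 1592 and 906 TPM. The spectrins Sptan1 (302 and 210 TPM) and Sptbn1 (161 and 173 TPM) were in both, as was Dcx, a microtubule protein of young neurons that binds neurofascin (130 and 94.0 TPM), while Sptbn4, the spectrin of nodes, had 0 counts in both. The ankyrin Ank1, singled out after its values were seen, was below 1 TPM in both pups, at 0.23 and 0.04 TPM. Ank2 and Ank3, ankyrins that hold L1-family proteins, changed order: Ank2 was at 119 and 60.9 TPM and Ank3 at 63.7 and 135 TPM, a log2 ratio of 0.89 in pup 1 and -1.13 in pup 3. Msn (50.8 and 10.4 TPM) and Mpp2 (36.4 and 3.07 TPM) were higher in pup 1, and Epb41l1 (14.0 and 50.1 TPM) and Dlg1 (5.68 and 21.5 TPM) in pup 3, as was Ezr (0.02 and 4.64 TPM), which lay below the level for naming.

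Polysialic acid on Ncam1 is built by St8sia2 and St8sia4, and both were read in each pup. St8sia2, the main enzyme before birth, stood at 77.0 and 37.4 TPM, and St8sia4 at 47.8 and 39.4 TPM. Their log2 ratio was 0.68 in pup 1 and -0.08 in pup 3, and no direction was named. Of the 7 genes of this list 5 were detected in both libraries and 3 were over 4-fold apart, 1 higher in pup 1 and 2 in pup 3. Cmas, which activates sialic acid, stood at 101 and 52.4 TPM, and St8sia3 at 40.3 and 13.9 TPM, 7.76-fold higher in pup 1. The sialic acid carrier Slc35a1 (0 and 96.8 TPM) and Gne, the first enzyme of sialic acid synthesis (0 and 36.7 TPM), were at least 921-fold and 264-fold higher in pup 3. These 2 genes had 0 counts in pup 1, the library with the higher Ncam1.

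Of 6 genes that attach the GPI anchor used by Cntn1, Cntn2 and Thy1, 5 were detected in both libraries and 3 were over 4-fold apart. Transamidase subunits led: Pigs at 132 and 151 TPM, Pigt at 80.4 and 108 TPM, and Gpaa1 at 175 and 43.8 TPM, 4.39-fold higher in pup 1. Pigu, another subunit, stood at 0 and 108 TPM, at least 826-fold higher in pup 3, and Pgap1, which remodels the anchor, at 8.24 and 90.6 TPM, 6.04-fold higher there. Of 8 proteases that cut adhesion molecules, 6 were detected in both libraries and 3 were over 4-fold apart. The gamma-secretase subunits Ncstn (145 and 141 TPM) and Psenen (103 and 140 TPM) were in both, while Psen2 stood at 0.90 and 94.0 TPM. The sheddases, which release the outer part of L1cam and Ncam1, divided: Adam10 stood at 5.00 and 23.1 TPM, 5.18-fold higher in pup 3, and Adam17 at 23.7 and 0 TPM, at least 565-fold higher in pup 1.

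**Figure D4:**
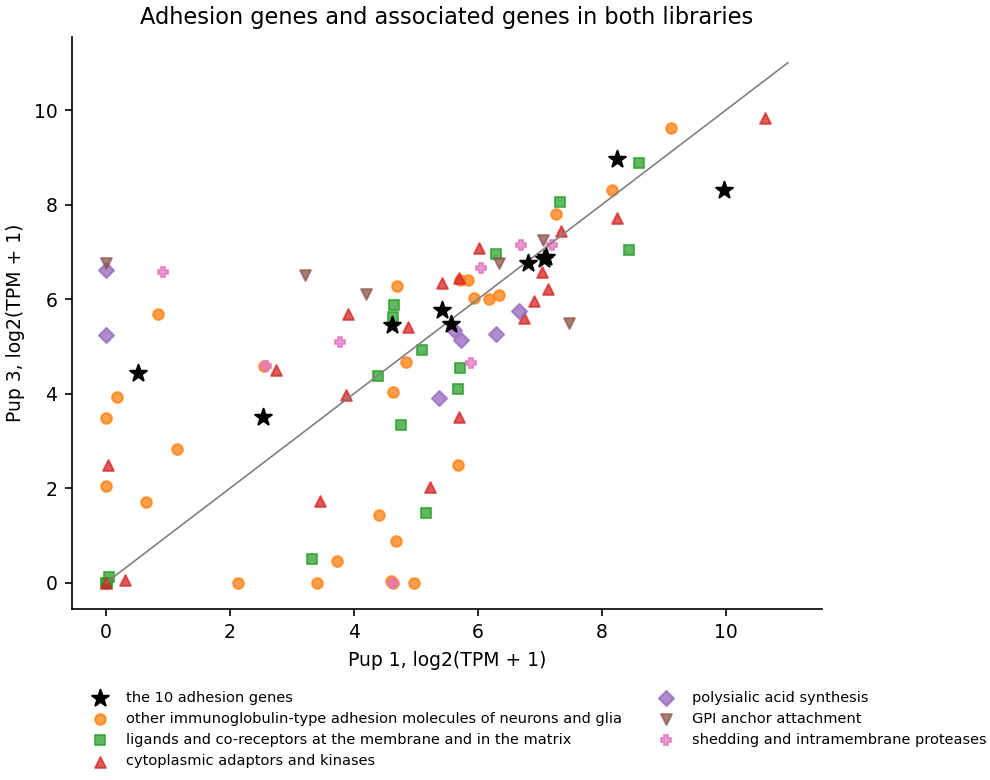
TPM of the 10 adhesion genes (stars) and of the 85 genes in 6 associated lists in pup 1 (x axis) and pup 3 (y axis), both as log2(TPM + 1), with the line of equality. Of the 10 genes, Ncam2 lies farthest from the line, and 31 of the 85 associated genes are over 4-fold apart by scaled counts.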

How the data were processed

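RNA-seq libraries of 2 newborn midbrains were read as 1 group. Reads were aligned to mm10 with gene models of GENCODE M4, per the file headers. Aligner, quantifier and strand use: not given in the sources used here. Columns carry the names of RSEM output. As deposited, expected counts split shared reads among genes and transcripts, and they were rounded for counting intervals. The deposited TPM values are scaled over the 69691 rows of each table, with spike-ins, and the deposited FPKM and posterior means served as alternatives. The deposited interval bounds, treated as a signal on the TPM scale, centre on the posterior mean, so a TPM can lie outside its own interval. The deposited percent of each gene on a transcript gave isoform shares.

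Symbols were matched for 42462 of 43346 genes. Coordinates and exon sequences come from GENCODE M21 on GRCm38, where all models of Ncam1, L1cam and Nfasc keep their deposited length. The deposited length of Ncam2-202, Chl1-201 and both Nrcam models differs from M21. Exon shares count models that carry or span an exon. The size rule used the exact 95% interval of the scaled count ratio, a fold of 4, and a detection limit of 1 TPM. Against 0 counts, the fold is the interval end nearest to 1, which also covers the counting of reads and not the amplification. The rule was tried on simulated counts with counting error alone and no amplification. Its error in amplified libraries such as these was therefore not tested. No test was run: 2 pups of 1 group cannot give one.

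The genes, lists and pairs were chosen with earlier results of these data known. Named were the 10 genes; models of Ncam1, L1cam and Nfasc at 5% or more in either pup; and of each associated list (marker lists are given by sums) the 4 highest by mean TPM, those called apart with a mean TPM from 10 upward, and those at 0 in both. The short models, Ncam1-201, other models at 0 and the remaining models under 5% were singled out after their values were seen. Of the genes this rule selects in the associated lists, 1 is not reported here. The proteins of the 10 genes were not analysed here. Work used Python 3.11.15, numpy 2.4.6, pandas 2.3.3, scipy 1.17.1 and matplotlib 3.10.9, with scaling factors from edgeR 4.0.16 and DESeq2 1.42.0 in R 4.3.3.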

Additional observations from a re-analysis of the deposited data

How the results depend on the processing

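By protein-coding models of at least 1000 bases, an alternative chosen after seeing the data, L1cam over Chl1 reversed from 0.209 to -0.0421 (mean log2 ratio). The order of these 2 genes turned in pup 3 alone. Cntn1 over Cntn2 moved from 1.93 to 3.45, Cntn2 over L1cam from -1.96 to -3.24 and Nrcam over Nfasc from -0.08 to 0.53. Each moved by more than its SD between the pups, and the remaining pairs did not. On that measure 6 of the 10 genes kept their place in the order by mean TPM, and with 1 pup left out of the main order, 6 to 8 did. At 2-fold, 3 of the 10 genes were called apart (Cntn2, Ncam1, Ncam2), against 1 at 4-fold and at 8-fold. By expected counts, Ncam1-205 held 24.3% of Ncam1 (22.3% by TPM, 21.4% to 23.2% with 1 pup left out), and Nfasc-202 held 77.6% of Nfasc (39.3% by TPM, 35.7% to 42.8%). L1cam-202 held 33.8% to 44.7% with 1 pup left out. Between 5954 and 5982 of all genes were called apart under the scaling, posterior mean and low-count alternatives, 8064 at 2-fold and 4914 at 8-fold. At detection limits of 0.1 and 10 TPM and 10 counts, 8 to 10 of the 10 genes and 49 to 67 of the 85 associated genes were detected in both pups. No paired analysis was possible because both pups belong to 1 group. With 24 counts for Ncam2 and 127 for Thy1 in pup 1, these had the fewest counts of the 10 genes there, and so the largest relative counting error. Counting error does not include that of amplification.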
